A study of Mus musculus with 8 samples.

Results

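The Dlk1-Dio3 cluster is a group of imprinted genes on mouse chromosome 12, and it was followed here through 6 named genes: Dlk1, Meg3, Rtl1, Rian, Mirg and Dio3. The rule that chose them used their names and no expression value, and 5 of the 6 had a row among the 31010 genes listed. Rian was not analysed here. The expression values came from RNA-Seq of germline stem (GS) cells, long-lived cultures of spermatogonia in which stem cell activity is high. Of the 8 GS cell lines, lines 11, 17, 20 and 21 came from ICSI-F1 mice, conceived by placing a sperm directly into the oocyte (intracytoplasmic sperm injection, ICSI). Lines 29, 37, 44 and 45 came from control-F1 mice, born by natural mating. All lines were labelled wild type (WT) with B6 in their names, and the treatment label read ICSI or no. Per the study's methods, the lines grew from CD9-expressing spermatogonia of mature testes, and embryonic fibroblasts used as feeders were removed from GS cell cultures on gelatin. The age of the mice was not given in the sources used here. The sample titles were written with hyphens for lines 29, 37, 11 and 17 (label form 1) and with low lines in place of the hyphens for lines 44, 45, 20 and 21 (label form 2). The labels also name other software versions for label form 2, so label form was handled as a possible technical batch holding 2 lines of each group. The labels do not say which lines share a mouse or a litter, so n counts lines and every p-value measures only the spread between these samples.

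In an imprinted cluster, genes are expressed from only one of the parental chromosomes. In this cluster the protein-coding genes Dlk1, Rtl1 and Dio3 are expressed from the paternal chromosome and the noncoding RNAs Meg3, Rian and Mirg from the maternal one, under a control region between Dlk1 and Meg3 that carries DNA methylation on the paternal chromosome. Male germ cells erase the maternal pattern and carry the paternal type of methylation on both chromosomes. The values below sum both alleles over all cells of a culture, and the alleles cannot be told apart in these data.

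The cluster genes were placed on the mm10 build (GRCm38) with GENCODE annotation. Dlk1 lies at chr12:109452823-109463336 on the plus strand and Meg3 at chr12:109541001-109571726 on the plus strand. Rtl1 lies at chr12:109589193-109600330 on the minus strand. Rian, annotated as a processed transcript, spans chr12:109603940-109661716, and Mirg spans chr12:109729764-109749460, both on the plus strand. Dio3 lies farthest along, at chr12:110279068-110281097 on the plus strand.

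The promoters of Meg3 and Dio3 are shown because these genes have clear matches to core promoter letters and differ in how their levels were distributed over the lines. Each is the RefSeq window of 300 bases (GRCm38.p6) around the annotated start, Meg3 at chr12:109540746-109541045 and Dio3 at chr12:110278980-110279279, both on the plus strand. Capitals mark matches on either strand to TGACGTCA (the cAMP response element), to TATAAA (the core of the TATA box), to CCAAT (the CCAAT box) and to GGGCGG (the GC box).
Meg3: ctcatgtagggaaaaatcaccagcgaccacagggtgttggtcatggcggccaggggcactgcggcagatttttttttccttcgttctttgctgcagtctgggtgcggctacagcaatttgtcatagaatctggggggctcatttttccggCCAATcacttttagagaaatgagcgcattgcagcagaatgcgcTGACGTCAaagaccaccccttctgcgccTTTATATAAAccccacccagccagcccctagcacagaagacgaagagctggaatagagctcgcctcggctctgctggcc
Dio3: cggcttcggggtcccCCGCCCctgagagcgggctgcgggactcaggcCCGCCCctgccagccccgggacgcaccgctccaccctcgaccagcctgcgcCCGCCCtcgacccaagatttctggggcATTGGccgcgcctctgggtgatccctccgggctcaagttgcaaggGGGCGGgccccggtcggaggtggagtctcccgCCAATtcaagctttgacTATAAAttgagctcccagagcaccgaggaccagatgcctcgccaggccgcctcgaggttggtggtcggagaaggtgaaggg
The letters TGACGTCA were in 1.79% of 32851 promoter windows and occurred once in that of Meg3. TATAAA was in 13.6% of the windows, and in the Meg3 window its forward and reverse forms overlapped in one run. CCAAT was in 37.4% and GGGCGG in 35.7% of the windows, and the Dio3 window held 4 matches to GGGCGG. None of these letters was in the Dlk1 window. The windows held 13 CpG pairs for Meg3, 25 for Dio3 and 9 for Dlk1, against a median of 7 over all windows. A match describes the letters only.

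The cluster is also a large miRNA locus. RefSeq placed 114 mature miRNAs from Dlk1 to Dio3, of which 26 lay within the bounds of Mirg, 13 within Rtl1, 6 within Rian and 3 within Meg3. Of the 13 within Rtl1, 11 were on the opposite strand, and the sequence of each of these 11 was perfectly complementary to the annotated Rtl1 transcript. Of the 11, 5 are shown, each from a different hairpin, because reads from their precursor transcript would fall on Rtl1 if strand were ignored. Capitals mark the seed, bases 2 to 8.
miR-431-5p: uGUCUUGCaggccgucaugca
miR-433-3p: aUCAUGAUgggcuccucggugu
miR-127-3p: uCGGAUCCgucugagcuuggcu
miR-434-3p: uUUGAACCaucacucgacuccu
miR-136-5p: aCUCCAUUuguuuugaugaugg
No pair of these 5 shared a seed. Within Mirg only miR-453 and miR-496a-5p had the same seed, which is shown in capitals.
miR-453: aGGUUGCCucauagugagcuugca
miR-496a-5p: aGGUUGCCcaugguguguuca
Mature miRNAs were not measured by this mRNA assay, so the values of Mirg are those of the long host transcript.

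Between 24684496 and 44241132 reads per line were recovered from the deposited values, and depth differed by label form (at most 26633372 reads in form 1 and at least 32334832 in form 2). The first principal component of the tested genes took 52.0% of their variance, with control line 44 and ICSI line 20 at its negative end (loadings -0.53 and -0.56). All 18 spermatogonial markers were at a mean of at least 1 FPKM, with Ddx4 at 173 to 274 FPKM. Of 8 Sertoli cell markers 3 had a mean of at least 1 FPKM, among them Sox9 (up to 5.46 FPKM) and Wt1 (up to 3.31 FPKM), while Amh and Fshr were under 0.1 FPKM in every line. Of 7 Leydig cell markers Star had such a mean (up to 1.77 FPKM), while Cyp17a1, Insl3 and Lhcgr were under 0.1 FPKM in every line. Fibroblast markers were present in every line, summing to 405 to 688 FPKM in ICSI and 283 to 1276 FPKM in control lines.

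The genes of the cluster were expressed at very different levels, which were compared per kilobase of exon as FPKM (fragments per kilobase scaled to the library size that the authors used). That size was not the total of recovered reads. It was 26476965 against 24684496 in control line 29 and 30969435 against 32334832 in ICSI line 20. Dlk1 was highest at a mean of 5.52 FPKM over 8 lines (median 5.65, range 2.86 to 9.30), followed by Meg3 at 1.04 (median 0.922, range 0.232 to 3.08), Dio3 at 0.606 (range 0.386 to 0.948) and Mirg at 0.271 (range 0.0531 to 0.423). Of all genes listed, 24.4% had a higher mean than Dlk1 and 47.7% had a higher mean than Mirg. Within lines, Dlk1 was above Meg3 in 8 of 8 lines, by 1.44 to 15.6 times, and above Dio3 in 8 of 8 lines. Dio3 was above Mirg in 8 of 8 lines, by 1.03 to 13.8 times, and Meg3 was above Mirg in 8 of 8 lines. Each of these 4 orders gave p = 0.00781 in an exact two-sided sign-flip test of the log2 ratio over the lines, the smallest value that 8 lines allow. Meg3 and Dio3 did not differ in a consistent direction (Meg3 higher in 5 of 8 lines, exact p = 0.445). Meg3 was the higher of the pair in 4 of 4 lines of label form 1 and in 1 of 4 lines of label form 2. A total of 5 pairs were compared. These orders depend on the exon length over all annotated transcripts, 18089 bases for Meg3 and 5657 for Dlk1. In control line 29 Meg3 had more reads than Dlk1 (1474 against 662) and yet the lower FPKM. Dio3 and Mirg were close in some lines. In ICSI line 21 the 95% Poisson intervals of their reads overlapped, at 0.254 to 0.561 FPKM for Dio3 and 0.302 to 0.457 FPKM for Mirg. In bulk cultures a low level cannot be told apart from expression in fewer cells.

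**Figure D1:**
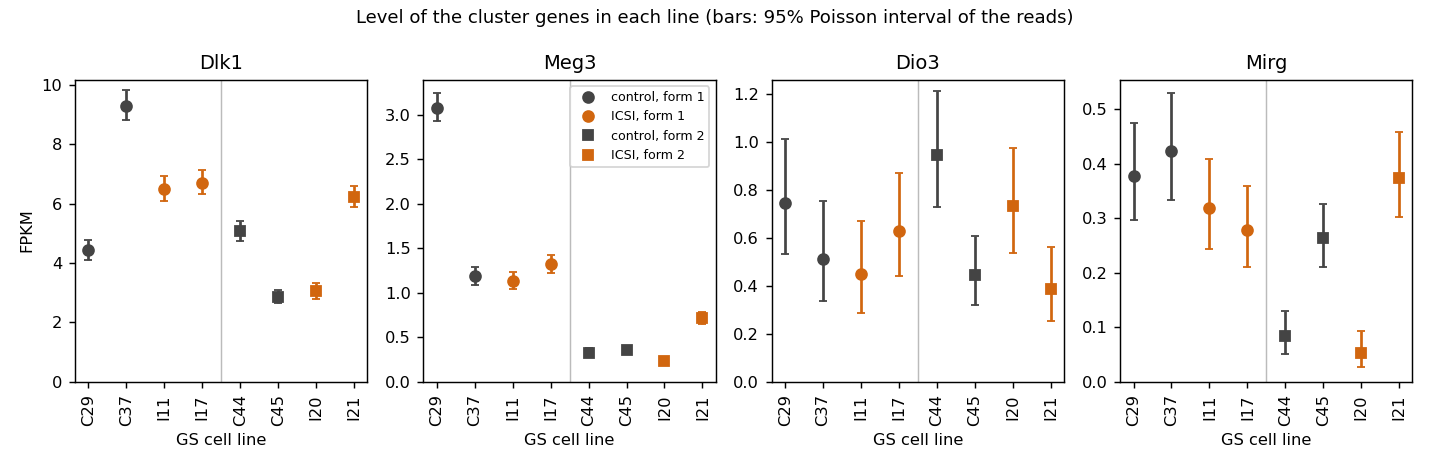
Level in FPKM (vertical axis, from 0) of Dlk1, Meg3, Dio3 and Mirg in each GS cell line (horizontal axis, C for control and I for ICSI), with bars for the 95% Poisson interval of the recovered reads and a vertical line between the label forms. Meg3 sits at 0.715 FPKM or less in the 4 lines of label form 2 and at 1.13 FPKM or more in those of label form 1, while the control and ICSI lines overlap in all 4 panels.

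Dlk1 encodes a transmembrane protein with epidermal growth factor-like repeats, related to the Notch ligands and known as a marker of preadipocytes. Among control-F1 lines, line 29 had 4.42 FPKM, line 37 had 9.30, line 44 had 5.07 and line 45 had 2.86. Among ICSI-F1 lines, line 11 had 6.51 FPKM, line 17 had 6.71, line 20 had 3.04 and line 21 had 6.23. The ICSI values lay within the control range, since control lines held both the highest and the lowest value. The means were 5.62 ± 1.73 FPKM in ICSI and 5.41 ± 2.75 FPKM in control lines (SD, n = 4 each). On the log2(FPKM + 1) scale the difference, ICSI minus control, was 0.09 ± 0.31 (SE of limma), with a 95% interval from -0.60 to 0.79, an adjusted p of 1.0 in limma and an exact two-sided permutation p of 0.857. These values rested on 533 to 1313 reads per line, and the 95% Poisson interval of line 20 was 2.79 to 3.31 FPKM, below that of each other ICSI line. Such intervals cover counting error only, and they may be too narrow because the reads carry no molecular identifiers.

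Meg3 is a long noncoding RNA, and the loss of its expression is known in several cultured stem cell types. Among control-F1 lines, line 29 had 3.08 FPKM, line 37 had 1.18, line 44 had 0.326 and line 45 had 0.356. Among ICSI-F1 lines, line 11 had 1.13 FPKM, line 17 had 1.32, line 20 had 0.232 and line 21 had 0.715. The groups overlapped, and line 29 stood above all other lines. The means were 0.848 ± 0.482 FPKM in ICSI and 1.24 ± 1.29 FPKM in control lines (SD, n = 4 each). The log2(FPKM + 1) difference, ICSI minus control, was -0.15 ± 0.36 (SE of limma), with a 95% interval from -0.96 to 0.66, an adjusted p of 1.0 in limma and an exact permutation p of 0.714. Within label form 1 the difference was -0.43 and within label form 2 it was 0.12, with 2 lines per group in each and hence no test. Leaving out line 29 turned the overall difference to 0.19.

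Mirg is the host transcript of the distal miRNA genes. Among control-F1 lines, line 29 had 0.378 FPKM, line 37 had 0.423, line 44 had 0.0838 and line 45 had 0.264. Among ICSI-F1 lines, line 11 had 0.318 FPKM, line 17 had 0.277, line 20 had 0.0531 and line 21 had 0.374. Line 44 and line 20 were low, with 20 and 12 reads, and the other 6 lines had 57 to 94 reads. The groups overlapped, with means of 0.256 ± 0.141 FPKM in ICSI and 0.287 ± 0.151 FPKM in control lines (SD, n = 4 each), a log2(FPKM + 1) difference of -0.035 and an exact permutation p of 0.714.

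Dio3 encodes the type 3 iodothyronine deiodinase, which inactivates thyroid hormone. Among control-F1 lines, line 29 had 0.744 FPKM, line 37 had 0.513, line 44 had 0.948 and line 45 had 0.446. Among ICSI-F1 lines, line 11 had 0.449 FPKM, line 17 had 0.629, line 20 had 0.732 and line 21 had 0.386. The groups overlapped, with means of 0.549 ± 0.160 FPKM in ICSI and 0.663 ± 0.229 FPKM in control lines (SD, n = 4 each), a log2(FPKM + 1) difference of -0.098 and an exact permutation p of 0.457. Lines 44, 29 and 20, the highest in Dio3, were also the 3 lines with the highest fibroblast score (mean log2(FPKM + 1) of 24 fibroblast markers), at 4.67, 4.96 and 4.24, against 2.99 to 3.96 in the others. Meg3 was also highest in line 29 but lowest in lines 44 and 20. With the fibroblast score as a covariate the ICSI difference of Dio3 was -0.048 (limma unadjusted p 0.608) and the label form difference 0.060 (limma unadjusted p 0.490). The part of fibroblasts in the level of Dio3 was not tested. Dio3 rested on only 24 to 63 reads per line.

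Rtl1 derives from a retrotransposon and is known for its role in the placenta. It had 1 read in control line 44 and 1 in ICSI line 11, and 0 in the other 6 lines. A count of 0 allows up to 0.0107 to 0.0189 FPKM per line at 3 reads, so both groups were at or under what these libraries could detect, and no fold change is given. The study's methods name a stranded kit and the labels another kit, so reads of the antisense miRNA precursor may or may not have been counted in Rtl1. The sum over both groups was 2 reads.

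Of the other 8 transcripts listed from Dlk1 to Dio3, only Gm34081, a long intergenic RNA at chr12:109493529-109516740 on the minus strand between Dlk1 and Meg3, reached a mean of 0.1 FPKM. Control line 29 had 0.438 FPKM of it, line 37 had 2.27, line 44 had 0.531 and line 45 had 1.25. ICSI line 11 had 1.32 FPKM, line 17 had 1.54, line 20 had 0.0936 and line 21 had 0.882. The groups overlapped (log2(FPKM + 1) difference, ICSI minus control, -0.10 ± 0.33, SE of limma, adjusted p 1.0), and its 2 to 39 reads per line make the level of line 20 uncertain (95% Poisson interval 0.0113 to 0.338 FPKM). The remaining 7 transcripts had at most 12 reads over all lines.

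**Figure D2:**
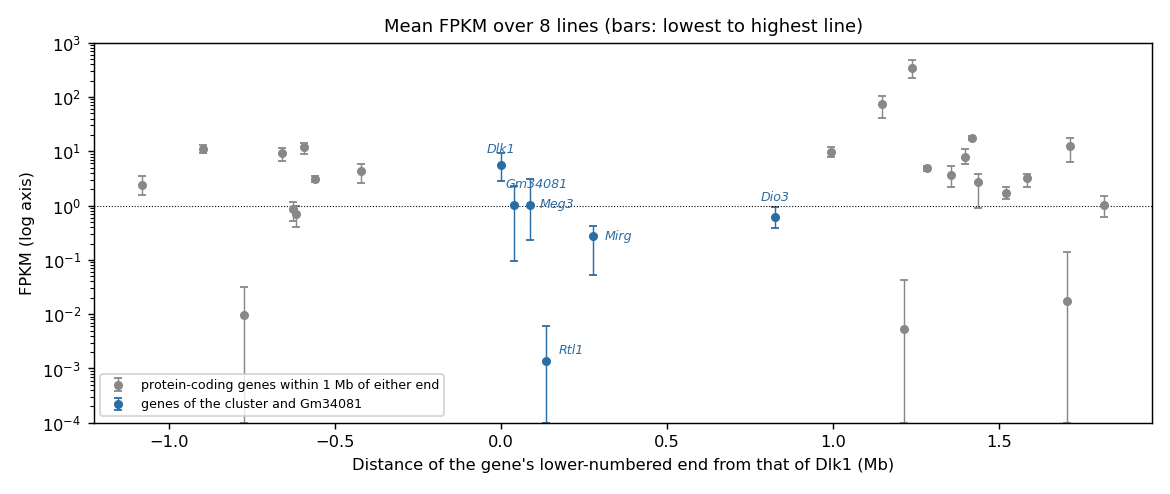
Mean FPKM over the 8 lines (vertical log axis, dotted line at 1 FPKM) of the listed cluster genes and Gm34081 (blue) and of protein-coding genes within 1 Mb of either end (grey), by distance from Dlk1 in Mb, with bars from the lowest to the highest line (a lowest line at 0 is drawn to the foot of the axis). Dlk1 and the cluster's other genes lie at 5.52 FPKM or less, and 9 of the 23 neighbours lie above Dlk1, up to 348 FPKM.

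The ICSI comparison was then read across all genes. Limma called 0 of 12000 genes (0%) at an adjusted p under 0.05, and 55 at an unadjusted p under 0.05, none of them a cluster gene. Group was the only term, so the error of this fit held the spread between label forms. With label form as a covariate 0 genes were called and 140 were at an unadjusted p under 0.05. Both 55 and 140 are below the share of 0.05 that chance alone would give, so these fits may miss small differences. The values of control and ICSI lines did not overlap for 0.442% of the 12000 genes, and 0 of the 4 cluster genes above 0.1 FPKM were separated in this way. The interaction of group and label form was called for 0% of genes, with 147 at an unadjusted p under 0.05, and for Meg3 it was 0.54 ± 0.41 (SE of limma at a minimum mean of 0.1 FPKM, adjusted p 1.0). The 18 tested protein-coding neighbours had 0 calls and a median log2 difference of 0.022, against -0.013 over all genes. Of the 15 tested genes of other imprinted loci 0 were called, with 4 higher and 11 lower in ICSI lines and a median of -0.057. Of 18 tested imprint control genes (those that set, protect or erase DNA methylation, with Polycomb and CTCF genes) 0 were called, with 9 higher and 9 lower. The thyroid hormone genes (6 tested), the Notch pathway (8 tested) and the retrotransposon-derived Rtl family (6 tested) likewise had 0 calls, with medians of 0.023, 0.043 and 0.0037. The fibroblast markers were lower in ICSI lines for 23 of 24 tested, with 0 called and a median of -0.24. That count was not tested. The sum of all 26 markers gave an exact permutation p of 0.629 between the groups. Control lines 29 and 44 had the highest sums (1276 and 1057 FPKM) and control line 45 the lowest (283 FPKM).

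Between the label forms, Meg3 was the one cluster gene called at an adjusted p under 0.05 with all 8 lines. It was at 0.407 ± 0.212 FPKM in label form 2 and at 1.68 ± 0.937 FPKM in label form 1 (SD, n = 4 each), a ratio of means of 0.243, and the forms did not overlap. Its mean over all lines, 1.04 FPKM, passed the minimum of 1 FPKM only through the lines of label form 1, where it was high. On the log2(FPKM + 1) scale its limma adjusted p was 0.0338 at a minimum of 0.1 FPKM and 0.0684 with no minimum. The log2(FPKM + 1) difference, form 2 minus form 1, was -0.88 ± 0.22 (SE of limma with group as covariate, adjusted p 0.0328), and an exact permutation test gave p = 0.0286, the lowest value possible with 70 assignments. With limma-voom on the recovered reads, which adds no pseudocount of 1 FPKM, the log2 difference was -2.12 ± 0.43 (SE, adjusted p 0.0267). Such a call was common: 16.0% of all genes were called between the forms, 5.76% as lower in form 2, and 10.8% were lower in form 2 with no overlap. The number called fell to 210 without ICSI line 11 and was 1917 with all lines. Of these calls 64.0% were higher in form 2, against 51.2% after quantile normalization and 46.8% with limma-voom.

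The Meg3 call depended on which line was left out. The genes of these fits were fixed by their mean over all 8 lines. Meg3 reached 1 FPKM only with line 29, so the fit without that line kept a gene which that line had let in. The adjusted p of Meg3 stayed under 0.05 without control line 29 (-0.65, limma adjusted p 0.0454) and without ICSI line 21 (-1.03, limma adjusted p 0.0182). When any one of the other 6 lines was left out the adjusted p in limma lay between 0.0610 and 0.0879, at differences of -1.01 to -0.82. The exact permutation p was over 0.05 without control line 29 (-0.66, p = 0.0571) and under 0.05 without any other single line. Without control line 44 and ICSI line 20 together, the lines at the end of the first principal component, the difference was -0.76 with a limma adjusted p of 0.140 and an exact permutation p of 0.133. So few lines of label form 2 remained there that the exact test could not give a p under 0.05. The sign of the Meg3 difference was negative in all of these fits. With the fibroblast score as a covariate the difference was -0.85 (limma adjusted p 0.0198), in a fit that called 3405 of 12000 genes, 1472 of them lower in form 2. The summed spermatogonial markers also separated the forms, at 1315 to 1597 FPKM in form 1 and 1687 to 2044 FPKM in form 2, and their part in the Meg3 difference was not tested.

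With all 8 lines on the log2(FPKM + 1) scale, the other cluster genes did not pass between the forms. Dlk1 was at 4.30 ± 1.63 FPKM in form 2 and 6.73 ± 2.00 FPKM in form 1 (SD, n = 4 each), with a log2(FPKM + 1) difference of -0.56 ± 0.26 (SE of limma, adjusted p 0.154) and overlapping values. Mirg was at 0.194 ± 0.152 FPKM in form 2 and 0.349 ± 0.0644 FPKM in form 1 (SD, n = 4 each), a difference of -0.18 with an exact permutation p of 0.114. Without line 44 and line 20, where the exact test could not give a p under 0.05, the difference of Mirg was -0.033 (exact permutation p = 0.533). Without ICSI line 21 it was -0.25 (exact permutation p = 0.0286). With limma-voom on the recovered reads it was -1.28 (adjusted p 0.178). Dio3 was at 0.628 ± 0.261 FPKM in form 2 and 0.584 ± 0.13 FPKM in form 1 (SD, n = 4 each), a difference of 0.029 with an exact permutation p of 0.886. Gm34081 passed the minimum at a mean of 1.04 FPKM, with 1.39 FPKM in form 1 and 0.689 FPKM in form 2. It differed by -0.49 ± 0.29 (SE of limma, adjusted p 0.263), and by -0.57 with the fibroblast score as covariate (limma adjusted p 0.0364). No other label form fit gave Gm34081 an adjusted p under 0.05. The fit with the fibroblast score called 3405 of 12000 genes, 1472 of them lower in form 2.

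**Figure D3:**
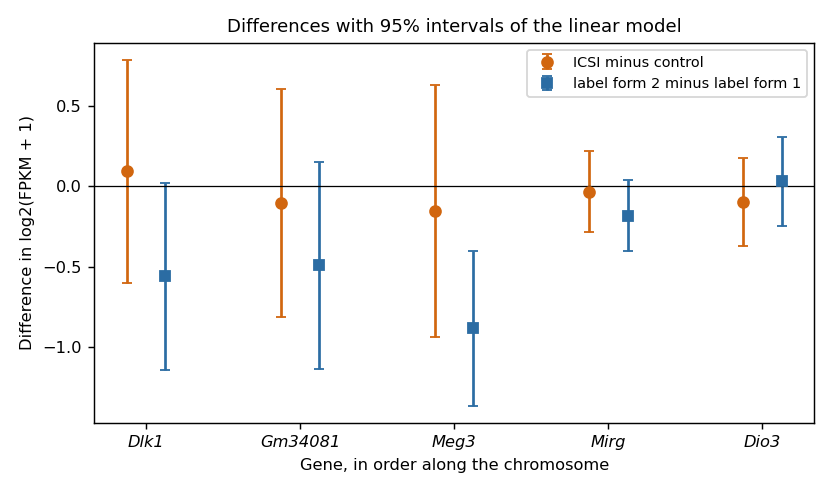
Difference in log2(FPKM + 1) (vertical axis) of 5 genes in their order along the chromosome (horizontal axis), ICSI minus control (circles) and label form 2 minus 1 (squares), with 95% intervals of limma fitted at a minimum mean of 0.1 FPKM. Only the label form interval of Meg3, from -1.36 to -0.40, lies wholly on one side of 0.

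The ratio of Dlk1 to Meg3 was examined because these genes are imprinted in opposite parental directions. Male germ cells carry the paternal type of methylation on both chromosomes, so here the ratio does not measure a balance of parental chromosomes. Fibroblast markers were present in every line, and the share of fibroblast RNA in Dlk1 and Meg3 was not tested. The ratio of the FPKM values of Dlk1 to Meg3 came to 1.44 for control line 29, 7.86 for line 37, 15.6 for line 44 and 8.05 for line 45. It came to 5.76 for ICSI line 11, 5.09 for line 17, 13.1 for line 20 and 8.71 for line 21. The groups overlapped (log2 ratio difference, ICSI minus control, 0.31, exact permutation p = 0.800). Between the forms the ratio did not overlap, at 1.44 to 7.86 in form 1 and 8.05 to 15.6 in form 2 (log2 difference 1.36, exact permutation p = 0.0286), although control lines 37 and 45 differed by little across that border. Meg3 by itself also did not overlap between the forms, whereas Dlk1 did. Of the 4 ratios examined, Meg3 to Mirg was 1.35 to 8.14, Dlk1 to Dio3 was 4.16 to 18.1 and Dlk1 to Mirg was 10.8 to 60.5, with exact permutation p-values of 0.229 to 0.429 between the forms and 0.514 to 0.971 between the groups. Dlk1 to Mirg was highest in lines 44 and 20, at 60.5 and 57.3.

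**Figure D4:**
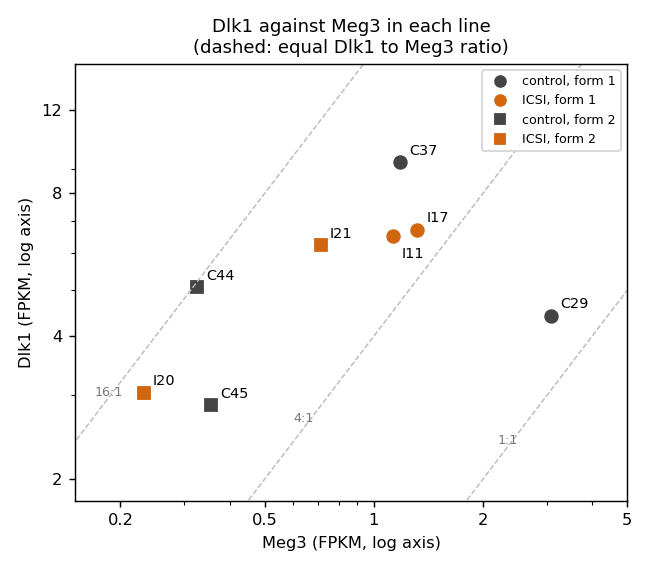
Dlk1 (vertical log axis, FPKM) against Meg3 (horizontal log axis, FPKM) in each line, grey for control and orange for ICSI, circles for label form 1 and squares for form 2, with dashed lines of equal ratio. Line C29, at a ratio of 1.44, lies apart from the other 7 lines, which lie between 5.09 and 15.6.

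Dlk1 and Meg3 varied more between lines than most genes. Of the 12000 genes tested, 7.72% had an SD of log2(FPKM + 1) over the 8 lines as large as that of Dlk1 (0.48) and 4.90% as large as that of Meg3 (0.57). The genes whose pattern over the 8 lines was most like that of Meg3 were Asap3 (Pearson's r 0.994), Alkbh7 (0.985), Usp18 (0.979) and Rnd3 (0.970). Each of these was highest in line 29, Usp18 at 2.15 FPKM and Rnd3 at 6.47 FPKM. Most like Dlk1 were Rab26os (0.959), Faap20 (0.959), Ddx31 (0.958) and Erc1 (0.941). These correlations describe 8 points that share label form and depth, and they were the highest of 12000 genes by choice. After the mean of each label form was taken out, r was 0.934 to 0.983 for the genes like Meg3 and 0.912 to 0.941 for those like Dlk1.

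The neighbours and the related gene lists were set beside the 16.0% of all genes called between the forms, with no test of any list against that share. The lists were chosen with earlier results of these data known. Of the 18 tested protein-coding neighbours 5 were called (27.8%), 3 higher and 2 lower in form 2, with a median difference of -0.15 against 0.028 over all genes. Yy1, a transcription factor gene, was at 11.0 ± 0.238 FPKM in form 2 and 7.62 ± 0.868 FPKM in form 1 (SD, n = 4 each, limma adjusted p 0.0190). Ppp2r5c rose by 0.40, and Begain and Dync1h1 fell by 0.53 and 0.66 on the log2 scale (limma adjusted p 0.0216, 0.0441 and 0.0470). Of the 18 tested imprint control genes, which include genes that set and genes that erase methylation, 6 were called (33.3%), 0 higher and 6 lower in form 2. Of all genes 5.76% were called lower. The median difference of the imprint control genes was -0.16. Among them Zfp57, whose product binds methylated imprinting control regions, was at 2.95 ± 0.290 FPKM in form 2 and 4.90 ± 0.304 FPKM in form 1 (SD, n = 4 each, limma adjusted p 0.0143). Dppa3, which guards maternal methylation in the zygote, differed by -0.94, the methylcytosine dioxygenase Tet3 by -1.0 and Dnmt3l, a cofactor of de novo DNA methylation, by -1.01 (limma adjusted p 0.0204, 0.0243 and 0.0319).

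Of the 15 tested genes of other imprinted loci 3 were called between the forms (20%, near the 16.0% of all genes), with Phlda2 lower in form 2 (-1.10) and the cell cycle inhibitor Cdkn1c and the receptor gene Igf2r higher (0.61 and 0.32, limma adjusted p 0.00888, 0.0320 and 0.0419). Their median difference was 0.16. In the Notch pathway 2 of 8 tested genes were called (25%, against 16.0% of all genes), Notch1 higher (0.71) and Notch2 lower (-0.42) in form 2 (limma adjusted p 0.0372 and 0.0377). The thyroid hormone list and the Rtl family had 0 calls among 6 tested genes each, with medians of 0.0021 and 0.24. Of the 18 spermatogonial markers 11 were called (61.1%), 9 higher and 2 lower in form 2, with Etv5 at 90.7 ± 8.90 against 40.8 ± 9.26 FPKM, Lhx1 at 18.1 ± 7.68 against 4.75 ± 1.05 FPKM and Dazl at 397 ± 23.1 against 277 ± 21.9 FPKM, and Utf1 lower at 4.18 ± 2.32 against 11.6 ± 1.76 FPKM (SD, n = 4 each). Of the Sertoli cell markers Wt1 was lower (-0.82) and Sox9 higher (1.03) in form 2 (limma adjusted p 0.0150 and 0.0242). Of 24 fibroblast markers 0 were called, with 13 higher and 11 lower and a median of 0.030. The part of these genes in the levels of the cluster was not tested.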

How the data were processed

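RNA-Seq of 8 GS cell lines, 4 per group, was analysed. The authors trimmed single reads of 76 bp with cutadapt, aligned them to mm10 with STAR, counted reads by gene using htseq-count, and supplied FPKM values, which are the deposited unit. Per the labels, label form 1 used cutadapt 3.4, STAR 2.7.9a and HTSeq 0.13.5, and label form 2 cutadapt 1.16, STAR 2.6.0c and HTSeq 0.11.2, whereas the study's methods give the first set for all lines. The labels and the methods also name different library kits, so strandedness is uncertain. The log2 fold change and adjusted p columns of the authors' own DESeq2 comparison were not used.

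Each FPKM value was divided by the value of 1 read, taken from the annotated exon length or from the steps between values, which gave whole numbers within 0.03 reads for 99.99% of the 12000 tested genes. For very high counts this check has little power. A count of 0 was given an upper limit of 3 reads. Genes averaging 1 FPKM or more were tested with limma 3.58.1 (R 4.3.3) on log2(FPKM + 1), a linear model with a variance trend. Tests were two-sided, and a gene was called at a Benjamini-Hochberg adjusted p under 0.05. A pseudocount of 1 understates differences of low genes such as Meg3, Mirg and Dio3. Group was the only term of the ICSI comparison, and group was a covariate of the label form comparison. Cluster genes were tested singly by exact two-sided permutation over 70 assignments. Mirg and Dio3 were under 1 FPKM, so their limma values came from a minimum of 0.1 FPKM. The fit was tested on simulated data. The groups share no line numbers.

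Named were the cluster genes, other transcripts of the interval at 0.1 FPKM or more, up to 4 called genes per list and comparison, and the 4 genes most like Dlk1 and Meg3. The rule for the cluster genes used names only, but the cluster genes, gene lists and tests were set with earlier results of these data known. Pseudocounts, filters, scalings, covariates and left-out lines were varied. Promoter and miRNA sequences came from RefSeq (GRCm38.p6), where 5 of the 6 cluster genes had a promoter.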

Additional observations from a re-analysis of the deposited data

Results flagged for a closer look

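A total of 22 sets of 4 values (cluster genes, ratios, fibroblast score and read totals in each group) were examined for 1 line far from the other 3, a pattern that chance gives in about 5% of sets. It was found in 2 sets. Dlk1 in ICSI line 20 was at 3.04 FPKM, below the other ICSI lines at 6.23, 6.51 and 6.71 FPKM. Dlk1 in that line rested on 533 reads. The ratio of Dlk1 to Dio3 in control line 37 was 18.1, above the other control lines at 5.35, 5.94 and 6.41, with Dio3 at only 26 reads in line 37. No difference of the ICSI effect between label forms passed the interaction test.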

How the results depend on the processing

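The count of genes called between ICSI and control lines was 0 under every alternative but one, the absence of a minimum, which gave 1. The interaction count was 0 under each of the 10 alternatives run for it, which left out no line and added no fibroblast score. The label form count of 1917 moved to 1255 with no minimum, to 3405 with the fibroblast score as covariate, to 739 without control line 44 and ICSI line 20 (an alternative chosen after seeing the data, like the voom fit on all genes and the joint change of minimum and pseudocount), and to between 210 and 2691 when 1 line was left out (287 without control line 37, 429 without ICSI line 17, 675 without control line 44, 1044 and 1061 without control lines 29 and 45, 1209 without ICSI line 20). With 1 line left out, the ICSI difference ranged from -0.12 to 0.35 for Dlk1, -0.35 to 0.19 for Meg3, -0.12 to 0.047 for Mirg and -0.16 to -0.019 for Dio3, so the first 3 signs depended on single lines: Dlk1 without control line 45, Meg3 without control line 29 or ICSI line 20 (0.027), and Mirg without control line 37 or ICSI line 20 (0.015 and 0.047). For Gm34081 it ranged from -0.26 to 0.15 and was 0.025 without lines 44 and 20. The label form difference of Dio3 turned to -0.0039 as TPM, -0.061 by voom and -0.16 without lines 44 and 20, and ranged from -0.062 to 0.10 with 1 line left out. That of Meg3 was negative in all fits, with a limma adjusted p of 0.0684 when no minimum was set. The causes were not tested. No paired analysis was possible because the groups share no replicate numbers. Depth limits Mirg, Dio3 and Gm34081, at 94 reads or fewer per line, and Rtl1 was not detectable beyond single reads.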
